A study of Danio rerio with 20 samples.

Results

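The cells described here are erythroid-primed progenitors of the caudal hematopoietic tissue (CHT) of zebrafish embryos at 5 dpf, from LY294002-treated and control embryos. They were chosen by their own transcript levels. A cell had to hold at least 1500 UMIs, at least 200 CPM of myb (its count scaled to the cell's own UMI total), at least 1 UMI of gata1a or klf1, and less than 500 CPM of alas2, 500 CPM of cebpb and 1000 CPM of krt4. This rule took 227 of the 1043 cells of the 4 CHT plates, and the whole series holds 6116 cells of at least 1500 UMIs on 20 plates. The LY294002 plates V1 and V2 held 53 and 57 of these progenitors, and the control plates W1 and W2 held 51 and 66.

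LY294002 is an inhibitor of PI3-kinase, and the comparison with control embryos asks how treatment with it changes blood progenitors. For late treatment, the study's methods describe an exposure that ended well before the stage sorted here. No source used here gives the hours of treatment for these plates, so whether PI3-kinase was still inhibited at the sort is not known. By the methods of the study, all embryos carried tg(kdrl:mCherry-CAAX/cd41:eGFP) and controls received the solvent DMSO. The CHTs of many embryos were pooled for each treatment. Live cells positive for the kdrl reporter and low for the cd41 reporter were then sorted, while the study's results section names only low cd41 for the CHT. The labels give all 4 plates the same stage and the same sort day, and call the control embryos wildtype. No source used here says that the plates of a treatment came from separate pools, so p-values measure the spread between plates, which may be technical. With 2 plates against 2 an exact permutation test cannot reach 0.05.

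The CHT is the site where hematopoietic stem and progenitor cells (HSPCs) expand in the fish larva, as they do in the fetal liver of mammals. Myb is a transcription factor of blood progenitors, Gata1 and Klf1 are the transcription factors that switch on red cell genes, and Alas2 catalyses the first step of heme synthesis in red cell precursors. As a cell matures along this path, ribosome production and the receptor Kit decline while heme enzymes, globins and membrane skeleton proteins accumulate. Comparisons are given with 388 alas2-high erythroid cells (at least 500 CPM of alas2, with the same limits of cebpb and krt4) and 279 cebpb-high myeloid cells (at least 500 CPM of cebpb) of the same plates.

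SORT-seq places 1 cell in each well and counts transcripts by unique molecular identifiers (UMIs). Progenitors had a median of 9547 and 10101 UMIs per cell on the LY294002 plates V1 and V2, and 13323 and 13113 on the control plates W1 and W2. Treatment and depth therefore moved together, and the alas2-high cells were shallower on each plate, with medians of 6460 and 6888 UMIs under LY294002 and 9633 and 10492 in control. The mitochondrial genome gave 13.0% and 11.9% of the progenitors' UMIs under LY294002, and 10.0% and 9.43% in control.

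The limits of the rule lay inside a continuum. The nearest cells on either side had 200.2 and 199 CPM of myb, and 499.9 and 504 CPM of alas2. The alas2 limit alone kept out 224 cells, the myb limit alone 52 and the cebpb limit alone 24. The progenitors with most cebpb and krt4 had 488 and 680 CPM, and no cell failed by krt4 alone. Both gata1a and klf1 were seen in 178 of 227 progenitors (78.4%), gata1a alone in 30 and klf1 alone in 19, and 22 cells entered through a single UMI. Cells with 1 of the pair had median UMIs of 7451 (gata1a only) and 7581 (klf1 only), against 12748 for cells with both.

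Some erythroid genes that the rule did not use were seen in most of these cells, and others in few. The erythroid regulator gfi1b was found in 25.6% of progenitors and 27.6% of alas2-high cells. The iron transport gene slc25a37 was found in 6.61% and 16.5%. The share of cells with a UMI of tal1, a partner of Gata1, was 95.6% in progenitors, 89.7% in alas2-high cells and 23.7% in cebpb-high cells. The shares for epor, the erythropoietin receptor, were 85.5%, 84.5% and 11.8%, and those for rhag, an ammonium channel of the red cell membrane, were 99.6%, 97.9% and 44.8%. With each cell thinned to 5000 UMIs, which left 204, 309 and 147 cells, the shares were 88.2%, 89.0% and 17.01% for tal1, 69.1%, 71.2% and 4.76% for epor, and 99.0%, 99.0% and 40.1% for rhag. The myeloid regulator spi1b was found in 4.85% of progenitors, 4.64% of alas2-high cells and 52.0% of cebpb-high cells. The neutrophil gene lyz was found in 78.9%, 76.0% and 68.8%, and in 52.9%, 55.3% and 72.1% after thinning to 5000 UMIs. Its share in progenitors was near that in alas2-high cells both ways and was not read as expression. Mpx, also a neutrophil gene, was found in 28.2%, 20.1% and 35.5% (16.7%, 10.7% and 34.7% after thinning). The leukocyte gene lcp1 was found in 39.6%, 20.6% and 86.7% (28.4%, 15.2% and 93.2% after thinning). Both were thus more frequent in progenitors than in alas2-high cells, and the source of this RNA was not tested.

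Several regulators of stem cells and markers of other cells were rare, while other HSPC markers were common. The stem cell regulators gata2a and gfi1aa had 0 UMIs in 227 progenitors, and a count of 0 allows up to 1.32% of cells with a UMI (3 of 227; cells can express a gene with no UMI captured), while gata2b was seen in 9 cells (3.96%, Wilson 95% interval 2.10 to 7.36%) and in 0 of 388 alas2-high cells. In cebpb-high cells gata2a, gfi1aa and gata2b were seen in 11, 3 and 4 of 279 cells. Among the HSPC markers of the study, pmp22b was seen in 80.2% of progenitors, 22.9% of alas2-high cells and 16.1% of cebpb-high cells. After thinning to 5000 UMIs these shares were 65.2%, 14.6% and 16.3%. Those for her6 were 89.9%, 57.0% and 41.2% (80.4%, 50.8% and 29.9% after thinning). Meis1b, also named by the study, was seen in 0.88% of progenitors, 0.52% of alas2-high cells and 9.32% of cebpb-high cells. The gene of the sort reporter, itga2b (cd41), had no UMI in any progenitor, and neither had mpl, the thrombopoietin receptor. Both were as rare in the other classes, with itga2b in 0 of 388 alas2-high and 1 of 279 cebpb-high cells, and mpl in 1 and 2. The platelet glycoprotein gene gp1bb was seen in 48.9% of progenitors, 51.5% of alas2-high cells and 5.38% of cebpb-high cells. Of 12 endothelial genes found in the files 5 were at 0 in progenitors, and their summed level was between 6.33 and 18.4 CPM on the 4 plates. Values for kdrl are not analysed here.

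Most myb-positive cells of the CHT below these limits of alas2, cebpb and krt4 held a UMI of gata1a or klf1. The 227 progenitors are 94.2% of such cells, and 14 cells had neither gene, at 1 to 6 cells a plate. A UMI of gata1a was also seen in 34.4% of the 279 cebpb-high myeloid cells, and a UMI of klf1 in 8.96%. Whether progenitors with few UMIs of the pair express either gene was therefore not settled by the rule and was not tested. The sums of the 14 cells were compared with those of progenitors by edgeR with plate as a block. Because the cells were divided on gata1a and klf1, genes that go with either had to differ, and the calls only describe both classes. Of 3943 genes 9 were higher in progenitors (0.228%) and 3 were lower (0.0761%). The median log2 fold change of all genes in this contrast was 0.66, so each fold is to be read against that shift, and the 14 cells had median UMIs between 2642 and 5899 a plate. Of the higher genes, crip2 had the largest fold, 22.5 (adjusted p = 0.012). It was followed by dmtn, the membrane skeleton protein dematin, at 9.88-fold (0.016), and mki67, a marker of proliferation, at 9.77-fold (0.0046). Tuba8l4 was at 2.95-fold (0.0065), slc4a1a, the anion exchanger band 3, at 2.28-fold (0.036) and AC024175.4 at 1.71-fold (0.015). The other higher genes have no symbol. The collagen genes col1a2 and col1a1b were lower, by log2 fold changes of -3.78 and -2.42 (adjusted p = 1.24e-06 and 0.038). With DESeq2 size factors in place of TMM the counts were 3 and 7 genes, and with DESeq2 itself 0 and 1. Without plate V2, W1 or W2 the higher genes numbered 0, 4 and 4 and the lower genes 2, 0 and 5.

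The progenitors ranged from cells with no alas2 to cells near the limit, and some red cell genes differed in step with it. The cells with myb and gata1a or klf1 were divided into 5 bins of alas2, of which the first 3 make up the progenitors. As the mean over 4 plates of CPM, hmbsb, a heme synthesis enzyme, had 266 CPM in cells without alas2, 442 below 250 CPM of alas2, 675 between 250 and 500, 834 between 500 and 1000 and 1363 from 1000 upwards. The order held on plates V1, W1 and W2, and on V2 the bins on either side of the progenitor limit were level at 654 and 649 CPM. The anion exchanger slc4a1a had means of 2270, 3061, 3824, 4524 and 7194 CPM, and stood in that order on every plate. Hmbsa, also of heme synthesis, had means of 203, 357, 556, 504 and 655 CPM. Epor had means of 236, 255, 231, 262 and 307 CPM. Because the bins were cut on alas2, genes that go with it had to differ, and the levels only describe the bins.

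Globin levels also differed along these bins. Hbae3, an embryonic alpha globin, had 1868, 3387, 10311, 15005 and 44643 CPM as means over plates. Cells without alas2 had 1686 and 1499 CPM of hbae3 on plates V1 and V2, and 2128 and 2161 CPM on W1 and W2. The cebpb-high cells were chosen with no limit on alas2, and 34.1% of them held a UMI of it. Their hbae3 level was 1830 and 1601 CPM under LY294002 and 2160 and 2759 CPM in control. In progenitors without alas2, hbae3 was no higher than in cebpb-high cells on any plate. The source of globin RNA in either class was not tested. Summed over 9 globin genes, progenitors without alas2 had 3689 and 3973 CPM under LY294002 and 4564 and 4602 CPM in control, against 3484, 3313, 3955 and 5159 CPM in cebpb-high cells of V1, V2, W1 and W2, which is higher on 3 plates and lower on W2. For slc4a1a the bin without alas2 (1866 to 2706 CPM) lay above the myeloid cells (272 to 757 CPM). The globin copies are near-identical in sequence, and reads may be split between them.

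Other genes ran the opposite way or were level. Kita, the Kit receptor, had means of 238, 196, 74.9, 68.2 and 16.8 CPM over the 5 bins, and pmp22b had 436, 322, 108, 89.5 and 38.6 CPM. In CPM, the largest difference between neighbouring bins lay between the second and the third, inside the progenitor range, for the means of both genes, where kita was 224 against 49.8 CPM on V1, 186 against 87.4 on V2, 186 against 82.0 on W1 and 190 against 80.4 on W2. Nucleolin (ncl), a factor of ribosome assembly, had 982, 926, 656, 546 and 248 CPM. Levels of rhag were 1504, 1694, 1679, 1692 and 1759 CPM, and those of tal1 were 539, 577, 566, 526 and 640 CPM. Bins held 9 to 38 cells a plate. Cells without alas2 were the shallowest of the progenitors, with median UMIs between 5727 and 9180 a plate, against 10545 to 16905 below 250 CPM, and the part of depth in these profiles was not tested.

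**Figure D1:**
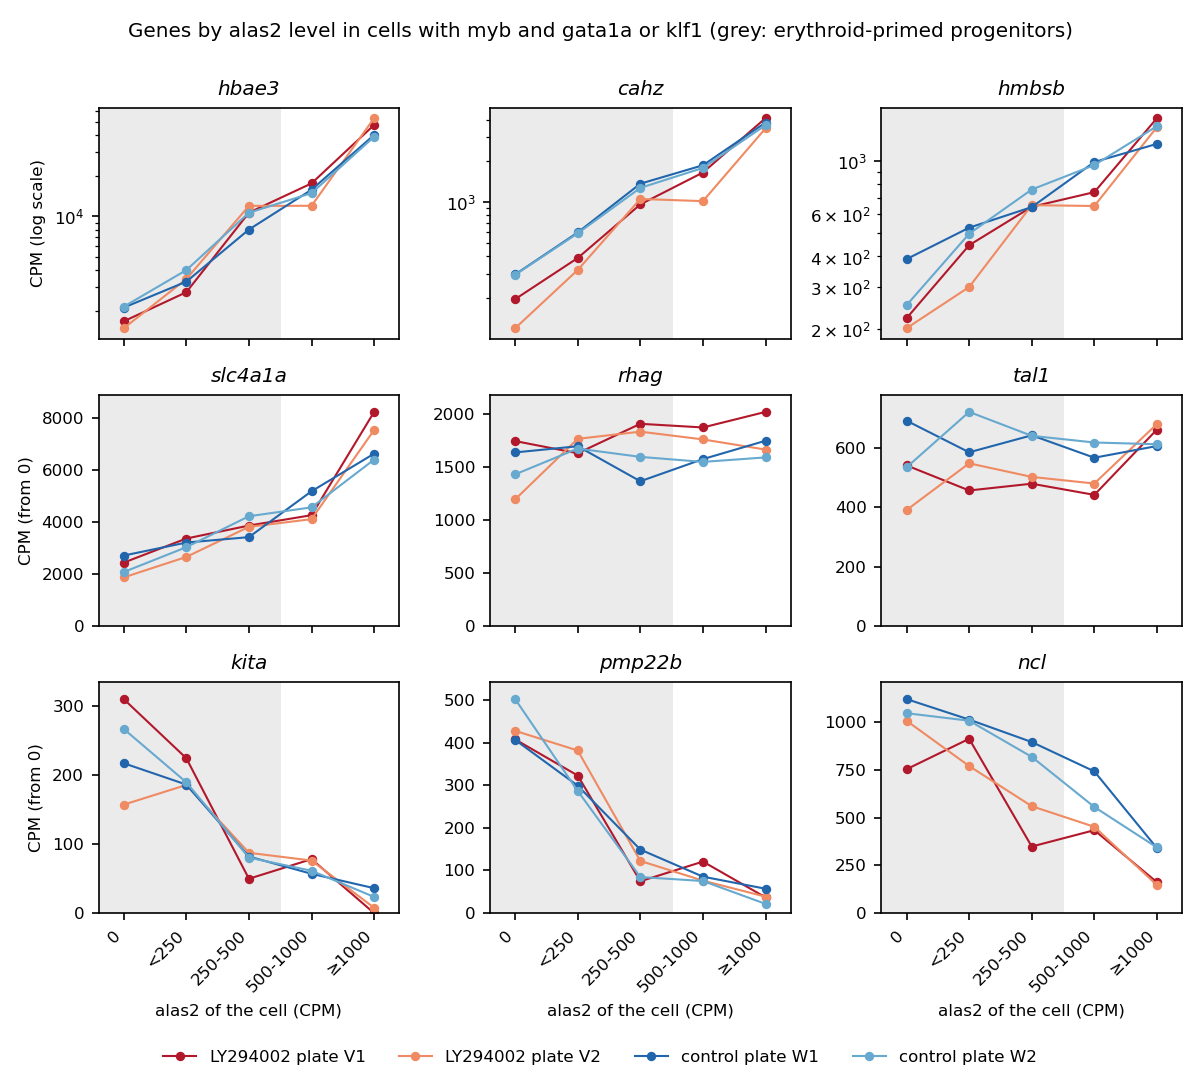
Level (CPM of UMIs summed per plate) of 9 genes in cells with myb and gata1a or klf1, by the alas2 level of the cell; each line is 1 plate, and the grey area holds the erythroid-primed progenitors. The top row has log axes, the others start at 0; hbae3, cahz, hmbsb and slc4a1a are highest at the right on all 4 plates, kita and pmp22b are highest in the first 2 bins, and rhag stays between 1196 and 2024 CPM.

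The contrast with alas2-high cells sorts the members' genes by role. The cells were divided on alas2, and myb was required in progenitors only. Of the 388 alas2-high cells, 224 met every limit of the rule but that of alas2. Genes that go with alas2 or myb had to differ, and the counts are a description of both classes. Counts were summed per plate and class and fitted with edgeR with plate as a block, and the 6 genes of the rule were left out of all counts. Of 6536 genes 1191 were higher in progenitors (18.2%) and 1120 were lower (17.1%), at an adjusted p under 0.05. The median log2 fold change of all genes was 0.002, and DESeq2 gave 607 and 577 genes. Levels per plate below are normalised CPM, that is, CPM with the TMM-scaled total as the divisor.

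Genes of ribosome production were higher in progenitors, as were most of the HSPC markers of the study that could be tested. Of 41 genes of nucleolar ribosome assembly tested, 40 were higher and none lower, with a median log2 fold change of 1.205. These include npm1a, a histone chaperone of the nucleolus (1.26 ± 0.08, SE), and dkc1, the pseudouridine synthase dyskerin (1.54 ± 0.13). Of 59 mitochondrial ribosomal protein genes 39 were higher (median 0.65), whereas of 72 cytosolic ribosomal protein genes 12 were higher, with a median of 0.09. Of 15 HSPC markers found outside the rule 11 were tested, and 10 of these were higher, with a median of 1.11. They include nucleolar genes themselves (ncl, fbl, dkc1 and pes). Gata2b, meis1b and gfi1aa, which the study also names as HSPC genes, were seen in only 9, 2 and 0 of 227 progenitors. Her6, a Notch-responsive repressor, had 546, 540, 718 and 607 normalised CPM in progenitors on V1, V2, W1 and W2, against 198, 135, 321 and 214 in alas2-high cells.

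The genes with the highest fold in progenitors were pmp22b, apex1, kita and dachb. Pmp22b, a membrane protein gene, had 268, 336, 269 and 269 normalised CPM in progenitors on plates V1, V2, W1 and W2, against 66.1, 49.4, 49.3 and 32.5 in alas2-high cells (log2 fold change 2.60 ± 0.14). Kita had 191, 158, 158 and 171 normalised CPM, against 30.9, 29.6, 37.5 and 25.5 (2.43 ± 0.16). Both genes were higher in progenitors than in alas2-high cells on 4 of 4 plates, as were 22.9% of all 6536 genes tested. The share of cells with a kita UMI was 66.96% in progenitors, 18.8% in alas2-high cells and 7.89% in cebpb-high cells, and 52.5%, 12.6% and 8.16% after thinning to 5000 UMIs. They were followed by hmgb3b (a high-mobility group protein), dnmt3bb.1 (a de novo DNA methyltransferase), ppan, igf2bp2a (an mRNA-binding protein), f2r (a thrombin receptor) and srprb, with log2 fold changes between 2.18 and 1.67. Apex1, a DNA repair endonuclease, and dachb, a Dachshund family gene, were at 2.54 and 2.43.

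Genes of the finished red cell were lower. All 7 genes tested from the globin list were lower in progenitors (median log2 fold change -2.91), as were all 7 genes of heme synthesis (-0.98). Of 13 genes of heme and iron transport 8 were lower (-0.52), and of 12 genes of the red cell membrane 10 were lower (-0.99). Cahz, the red cell carbonic anhydrase, had 570, 487, 597 and 682 normalised CPM in progenitors, against 4033, 3767, 3785 and 3701 in alas2-high cells. Hbae3 had 5452, 5485, 3487 and 5182 normalised CPM, against 48511, 55035, 33199 and 39485. Among the named genes with the lowest fold, hbbe1.3, hbbe1.2, hbz and hbae1.3 are globins, of which hbz is not on the globin list. Also among them, hsp70l and hsp70.3 (log2 fold changes of -3.59 and -3.04) are stress-inducible Hsp70 genes. The mitochondrial chaperones hspe1 and hspd1 were higher in progenitors, with log2 fold changes of 1.32 and 0.85, so that of 27 heat shock genes 12 were higher and 5 lower.

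Regulators of the lineage divided. Of 13 erythroid regulators tested outside the rule, kita and the cytokine signal transducer stat5a were higher, and klf3, sox6, mybl2b, gfi1b and epor were lower. For sox6, a silencer of embryonic globin in mammals, progenitors had 8.74, 8.23, 12.0 and 22.3 normalised CPM, against 41.9, 42.8, 39.9 and 34.7 in alas2-high cells. Tal1, lmo2 and nfe2 did not pass the test (log2 fold changes of -0.05, 0.02 and -0.11, adjusted p = 0.66, 0.88 and 0.55 in edgeR's quasi-likelihood test), nor did rhag (-0.10, 0.16). Of 5 thrombocyte genes tested 4 were lower in progenitors, among them tubb1, the platelet tubulin, with 247, 221, 245 and 204 normalised CPM against 626, 604, 466 and 516.

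Cell division genes were lower in progenitors on the whole list. Of 36 mitosis genes 29 were lower and none higher (median -0.63), and of 28 DNA replication genes 18 were lower and none higher (-0.44). The mitotic kinase gene plk1 had 119, 135, 206 and 218 normalised CPM, against 227, 321, 268 and 297, whereas top2a, the topoisomerase of dividing cells, did not pass the test (-0.07, adjusted p = 0.70). Of 20 genes of the amino acid stress response 13 were lower, among them the stress-induced transcription factor genes atf3 and ddit3, and 1 was higher. Of 6 skin genes tested 1 (pfn1) was higher and 2 (krtt1c19e and krt91) were lower, with a median of -0.37, while the sum over the 22 skin genes found was 1453 to 1666 CPM in progenitors and 779 to 982 CPM in alas2-high cells. Of 13 muscle genes 9 were lower.

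**Figure D2:**
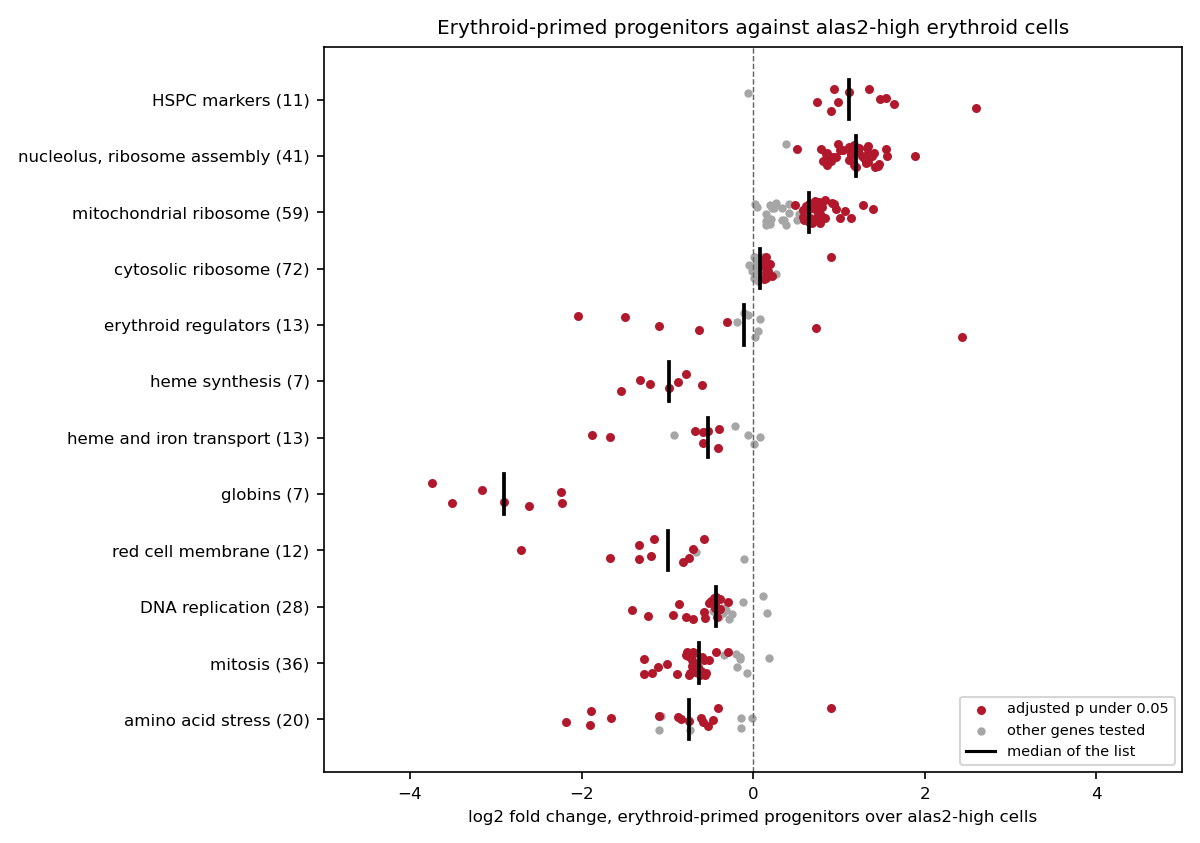
Log2 fold change of each gene tested (points) in 12 gene groups, erythroid-primed progenitors over alas2-high cells of the same plates; red points have an adjusted p under 0.05, black bars are medians, and the number of genes tested is in brackets. The HSPC marker and nucleolar groups lie to the right with medians of 1.11 and 1.205, and globins lie farthest left with a median of -2.91.

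LY294002 did not shift the share of progenitors beyond the spread between plates. They made up 23.98% (Wilson 95% interval 18.8 to 30.0%) and 20.4% (16.1 to 25.5%) of cells on the LY294002 plates V1 and V2, and 18.5% (14.4 to 23.6%) and 24.7% (19.9 to 30.2%) on the control plates W1 and W2. The mean was 22.2 ± 2.56% under LY294002 and 21.6 ± 4.37% in control (SD, n = 2 plates each), a difference of 0.54 percentage points (exact permutation test, two-sided, p = 1). Of all cells with at least 200 CPM of myb, progenitors were 46.5% and 43.5% under LY294002 and 34.7% and 46.5% in control (difference of the means 4.41 points, exact permutation p = 0.667). The sign of the share among all cells depended on the setting, and it was -2.55 points without W1 and 3.62 points without W2. The intervals cover counting error only.

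Within the progenitors, few genes were called between LY294002 and control, and genes without a call were not shown to be unchanged. Of 5688 genes tested by edgeR, 16 were higher (0.281%) and 12 were lower (0.211%) in LY294002-treated than in control embryos at an adjusted p under 0.05, and 699 had an unadjusted p under 0.05. The plates of the 2 treatments did not overlap for any of the 28. Over all genes tested, both LY294002 plates lay above both control plates for 20.3% and below them for 23.8%. Of the 28 genes, 5 that rose and 2 that fell have no symbol. With DESeq2 5 genes rose and 0 fell, and with an alas2 limit of 250 CPM, which leaves fewer cells, 0 rose and 0 fell. Without W1 16 rose and 11 fell, and without V1, V2 or W2 the counts were 31 and 35, 52 and 38, and 49 and 33.

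The gene with a symbol that rose most was arrdc3a, an arrestin domain gene of the same family as txnip. It had 48.96 and 44.4 normalised CPM under LY294002, against 13.3 and 12.8 in control, and was seen in 14 and 18 cells against 8 and 8 (log2 fold change 1.86 ± 0.38, adjusted p = 0.014). Both LY294002 plates lay far above both control plates, but the call was lost under 3 of 10 other settings (adjusted p of up to 0.656). The related txnipa, an inhibitor of thioredoxin and of glucose uptake, had 187 and 114 normalised CPM against 117 and 79.8, and did not pass the test (0.64 ± 0.23, adjusted p = 0.25). Of 19 FoxO-responsive genes tested, arrdc3a alone passed, 15 had a positive fold change and the median was 0.24, against 0.01 over all genes.

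CABZ01111496.1, a gene with no role known here, was close behind, with 240 and 146 normalised CPM against 51.8 and 59.6 (1.81 ± 0.23, adjusted p = 6.9e-05). It lost this call under 1 of 10 other settings (adjusted p of 0.0744). CR735126.1 had 680 and 390 against 281 and 264 (1.00 ± 0.19, adjusted p = 0.0087). Its call was lost under 4 of 11 other settings (adjusted p of up to 0.282) and when V1 was left out.

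Insig1, which holds back the activation of sterol synthesis and is itself a target of that programme, had 17.5 and 26.3 normalised CPM under LY294002, against 74.7 and 69.2 in control (-1.67 ± 0.30, adjusted p = 0.0044). Of its 16 UMIs on V2, 7 came from 1 cell, and it lost the call under 3 of 10 other settings (adjusted p of up to 0.397). Abca1a, the cholesterol exporter, had 124 and 122 normalised CPM against 57.8 and 70.21 (0.96 ± 0.22, adjusted p = 0.036). It lost this call under 4 of 10 other settings and when W1 was left out. Insig1 was the only one of 8 sterol synthesis genes tested that passed. The sterol isomerase gene ebp had 5.25 and 8.23 against 22.9 and 30.9 (-1.94 ± 0.53, adjusted p = 0.11).

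Birc5a, which codes for survivin, a protein of the chromosomal passenger complex and an inhibitor of apoptosis, had 17.5 and 21.4 normalised CPM under LY294002, against 59.0 and 60.6 in control (-1.58 ± 0.32, adjusted p = 0.013). It lost the call under 3 of 10 other settings (adjusted p of up to 0.957). Birc5a was the only one of 35 mitosis genes tested that passed. Of the others, 10 were lower at an unadjusted p under 0.05 only, 28 of the 35 had a negative fold change in all, and the median was -0.27. Plk1 had 119 and 135 normalised CPM against 206 and 218 (-0.71 ± 0.18, adjusted p = 0.088). DNA replication genes had a median of -0.02, with none of 26 past the threshold. The 40 mitosis genes found summed to 2895 and 3089 CPM under LY294002, against 4511 and 3870 in control.

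Ddx21, a nucleolar RNA helicase, rose, with 533 and 438 normalised CPM under LY294002 against 281 and 324 in control (0.71 ± 0.16, adjusted p = 0.041). It lost this call under 6 of 11 other settings, with adjusted p-values of up to 0.656, and without V1 or W1 (0.226 and 0.324). No other of the 41 nucleolar genes passed, and their median was -0.08. Hspe1, the mitochondrial co-chaperone Hsp10, fell to 161 and 222 normalised CPM, against 326 and 333 (-0.75 ± 0.18, adjusted p = 0.0498), and lost this call under 6 of 11 other settings, with adjusted p-values of up to 0.957, and without V1, W1 or W2 (0.272, 0.114 and 0.0933). Lcp1, an actin-bundling protein of leukocytes, had 96.2 and 170 against 44.6 and 54.3 (1.45 ± 0.25, adjusted p = 0.0030), but 52 of its 103 UMIs on V2 came from 1 cell, and it lost the call under 5 of 10 other settings (adjusted p of up to 0.314). In cebpb-high cells lcp1 was between 1119 and 1435 CPM. The myeloid gene cebpb, limited by the rule, had 76.9 and 41.2 normalised CPM in progenitors, against 21.7 and 40.4, and the 10 neutrophil genes summed to 277 and 334 CPM, against 315 and 375. The part of myeloid RNA in lcp1 was not tested.

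Of 7 genes tested from the globin list 2 rose. Hbbe2, an embryonic beta globin, had 4309 and 4450 normalised CPM under LY294002, against 2202 and 3002 in control (0.78 ± 0.15, adjusted p = 0.010), and hbbe1.1 had 236 and 230 against 78.3 and 157 (1.00 ± 0.22, adjusted p = 0.035). All 7 had positive fold changes (median 0.64), and the other 5 had an unadjusted p under 0.05 only. Hbbe2 lost its call under 3 of 11 other settings and hbbe1.1 under 4 of 11 (adjusted p of up to 0.519 and 0.706). With an alas2 limit of 250 CPM the log2 fold change of hbbe2 was 0.40 (adjusted p = 0.519), and without W1 neither globin passed (log2 fold changes of 0.57 and 0.59, adjusted p = 0.0515 for hbbe2 and 0.589 for hbbe1.1). Summed over 9 globin genes, progenitors had 13324 and 14061 CPM under LY294002, against 8507 and 12382 in control, while cebpb-high cells had 3484 and 3313, against 3955 and 5159. By plain CPM, the sums of both LY294002 plates lay above both control plates only between 250 and 500 CPM of alas2. These 9 to 16 cells a plate had 27536 and 31687 CPM under LY294002, against 18204 and 25287 in control. Below 250 CPM the sums were 7133 and 9360 CPM, against 7143 and 9103, and in cells without alas2 they were 3689 and 3973 CPM, against 4564 and 4602. Hbbe2 below 250 CPM of alas2 had 2118 and 3230 CPM under LY294002, against 2109 and 2217 in control. Plain CPM leaves out the TMM factors of progenitors (0.98 and 0.99 under LY294002, 1.14 and 1.06 in control). These factors lower control levels in relation to LY294002, so the bins cannot place the difference. None of 7 heme synthesis genes passed (median -0.24), nor did any of 11 red cell membrane genes (0.15) or 11 erythroid regulators (0.11). Alas2, which the rule limits, had 201 and 161 normalised CPM against 128 and 166.

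Neither pten gene passed the test. Ptena had 57.7 and 67.5 normalised CPM under LY294002, against 67.5 and 59.6 in control (0.01 ± 0.25, adjusted p = 0.99), and ptenb had 21.0 and 19.8 against 28.9 and 40.4 (-0.75 ± 0.38, adjusted p = 0.44). Of 23 genes of the PI3K pathway tested none passed, with a median of 0.01. Deptor, an inhibitor of mTOR, had 135 and 114 against 71.1 and 64.9 (0.89 ± 0.22, adjusted p = 0.061). The HSPC markers, with 0 of 11 past the threshold and a median of -0.19, held no called gene, and kita and pmp22b were at 0.11 and 0.19. Of 34 proteasome genes 30 had a negative fold change (median -0.33, against 0.01 over all genes). Of 72 cytosolic ribosomal protein genes 69 had a positive one (0.24), and of 59 mitochondrial ribosomal protein genes 47 had a negative one (-0.23). No gene of these lists was called in progenitors. In alas2-high cells of the same plates 33, 69 and 46 genes of the 3 lists had these signs, with medians of -0.50, 0.24 and -0.23, so the pattern was not particular to progenitors.

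**Figure D3:**
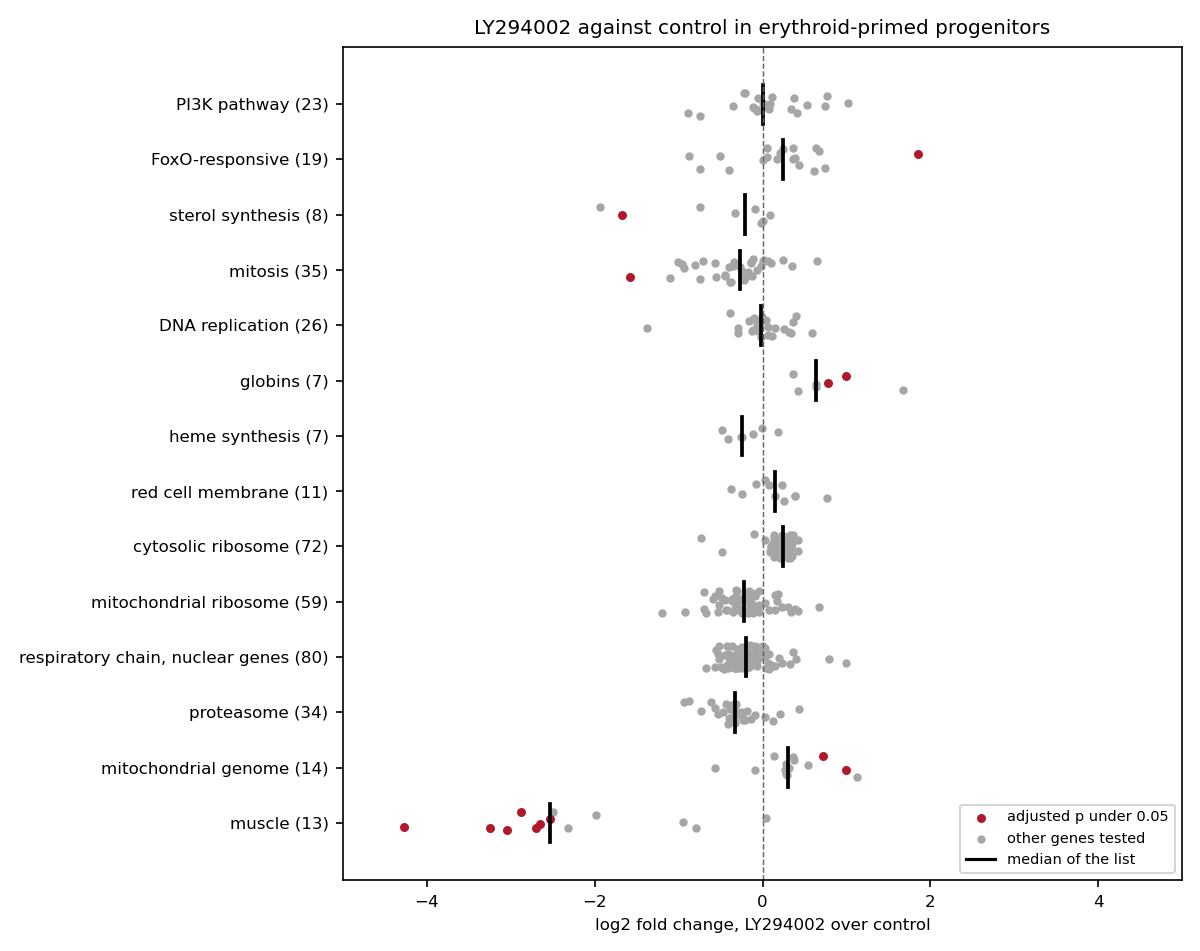
Log2 fold change of each gene tested (points) in 14 gene groups in erythroid-primed progenitors, LY294002 over control; red points have an adjusted p under 0.05, black bars are medians, and the number of genes tested is in brackets. Muscle genes lie farthest left (median -2.53, 7 of 13 called), the 7 globins lie to the right of 0, and 1 gene each passes among FoxO-responsive, sterol synthesis and mitosis genes.

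**Figure D4:**
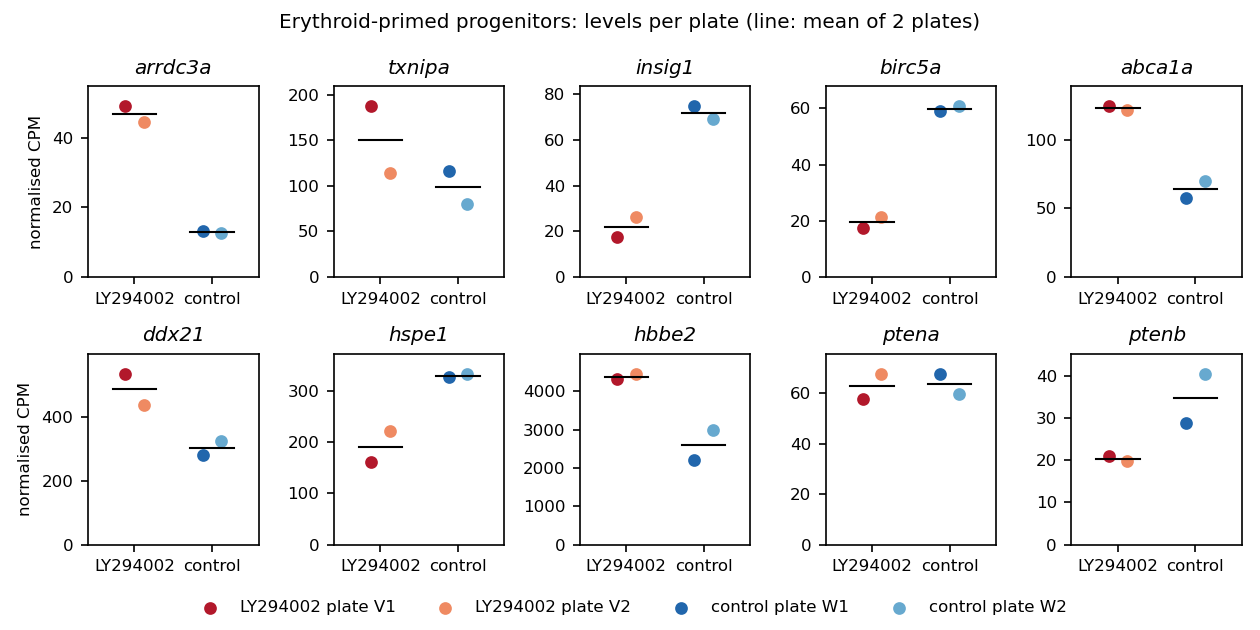
Normalised CPM of 10 genes in erythroid-primed progenitors on the LY294002 plates V1 and V2 and the control plates W1 and W2; each point is 1 plate, lines are means and all axes start at 0. Arrdc3a, abca1a, ddx21 and hbbe2 are higher and insig1, birc5a and hspe1 lower under LY294002; ptena and txnipa overlap between treatments, and ptenb does not overlap but did not pass the test.

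Of the 12 genes that fell, 7 code for muscle proteins, and these followed the plate in every class of cell. Pvalb2, a parvalbumin of fast muscle, had 31.5 and 0 normalised CPM in progenitors under LY294002, against 441 and 172 in control (-4.28 ± 0.49, adjusted p = 2.7e-05). The others were the creatine kinase gene ckma, the parvalbumin gene pvalb1, the troponin genes tnnt3b and tnnc2 and the myosin light chain genes mylz3 and mylpfa, with log2 fold changes between -3.25 and -2.53. Without W1, mylpfa and tnnc2 lost their calls (adjusted p = 0.282 and 0.0515). The 21 muscle genes found summed to 796 and 139 CPM in progenitors on V1 and V2, against 4071 and 1179 CPM on W1 and W2. The sums were 963 and 139 against 5873 and 1326 CPM in alas2-high cells, and 796 and 346 against 5231 and 1311 CPM in cebpb-high cells, so that the plates stood in one order in all 3 classes. The 2 called genes of the mitochondrial genome, AC024175.4 and AC024175.17, rose and were called in alas2-high cells as well. Their levels in cebpb-high cells are not given here. AC024175.4 had 89641 and 73322 normalised CPM in progenitors against 49363 and 51174, and 90755 and 73321 against 48267 and 49250 in alas2-high cells. In progenitors its call was lost without V1 or V2 (adjusted p = 0.444 and 0.107). Krtt1c19e, a keratin gene of the skin, had 150 and 140 normalised CPM in progenitors against 56.6 and 92.6 (adjusted p = 0.042). It lost this call under 5 of 10 other settings and when W1 was left out. The 22 skin genes summed to 1598 and 1583 CPM under LY294002 and 1666 and 1453 in control.

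**Figure D5:**
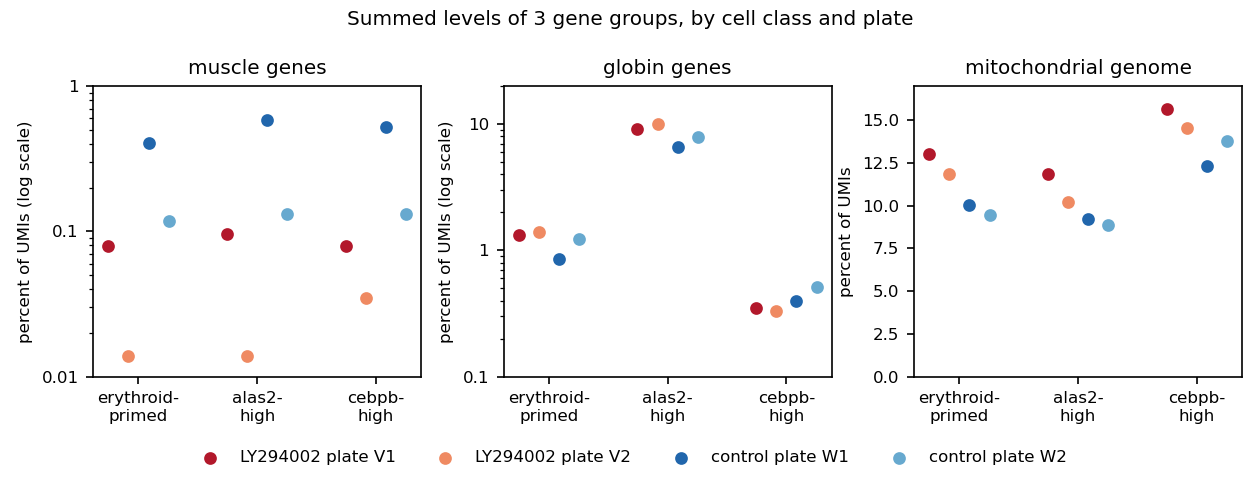
Percent of UMIs from muscle genes, globin genes (log axes) and the mitochondrial genome (axis from 0), by cell class and plate; each point is 1 plate. Muscle genes are lowest on LY294002 plate V2 and highest on control plate W1 in all 3 classes, whereas globins are higher on both LY294002 plates in the 2 erythroid classes and lower in cebpb-high cells.

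The same fit in alas2-high cells of these plates called 69 of 6433 genes (1.07%), 43 higher (0.668%) and 26 lower (0.404%). Of the 28 genes called in progenitors, 17 were also called there in the same direction, and they are 17 of the 69 called in alas2-high cells. Both results come from the same plates. In alas2-high cells arrdc3a had 39.7 and 52.7 normalised CPM under LY294002, against 15.6 and 15.6 in control, and insig1 had 30.9 and 46.1 against 120 and 100. Birc5a had 85.9 and 77.4 against 72.7 and 106 there (-0.15 ± 0.22, adjusted p = 0.80). The difference between the classes in the LY294002 effect, tested as a class by treatment term, passed for 1 of 6536 genes (0.0153%), h1fx, and not for birc5a (log2 difference -1.47, adjusted p = 0.53). Against the 14 myb-positive cells without gata1a or klf1, edgeR called 0 of 3943 genes for this term (0.0%), with 51 at an unadjusted p under 0.05, and DESeq2 called 0 (26 unadjusted).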

How the data were processed

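The data are SORT-seq plates (384 wells) of cells from LY294002-treated and control embryos. The deposited values are estimated counts: the authors mapped reads to the Zv9 transcriptome (BWA per the processing notes, version not given in the sources used here), counted UMIs per gene and well and corrected them for UMI collisions. Wells under 1500 UMIs were left out, as in the study, and spike-ins were left out of totals. Plate totals were 1852250 to 3125386 UMIs. The labels say that some wells were not used, and the layout is not analysed here, so all wells were used. This leaves more cells than the study analysed, and the shares may count wells that it left out. No doublet caller was used; an alternative dropped, on each plate, the top 2% by UMIs. No 2 cells were identical. Symbols were found for 17029 of 21587 gene IDs.

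Counts were summed per plate and class, rounded and tested with edgeR 4.0.16 (R 4.3.3, limma 3.58.1; filterByExpr, TMM, quasi-likelihood, Benjamini-Hochberg adjustment); DESeq2 1.42.0 was an alternative. Fits between classes had plate as a block. The SE is the log2 fold change divided by the root of F. Levels in progenitors and alas2-high cells called normalised CPM use the TMM-scaled total, and levels in cebpb-high cells, bins and sums use plain CPM. Python 3.11.15, numpy 2.4.6, pandas 2.3.3, scipy 1.17.1 and matplotlib 3.10.9 were used. The fits, except that of LY294002 in alas2-high cells, were run on simulated counts with a common dispersion for all genes.

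Named genes are those of the rule, members of 35 gene lists, txnipa, arrdc3a, ptena and ptenb, and the 10 with the largest fold per direction among called genes (for LY294002, with plates that do not overlap; between classes, with a symbol, at least 50 CPM in the higher class and one direction on 4 of 4 plates). The levels of deptor, ebp and lcp1 per cell and the genes called against myb-positive cells without gata1a or klf1 were picked after their values were seen. The members and all lists were chosen with earlier results of these data known. Alternatives changed the UMI minimum, the limits of the rule, the scaling, the tool, the low-count filter and the plates, and thinned cells to 1500 UMIs; the class by treatment term with alas2-high cells, the alas2 bins and the levels per TMM-scaled total were added after seeing the data.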

Additional observations from a re-analysis of the deposited data

Results flagged for a closer look

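The LY294002 effect on h1fx, a linker histone gene, differed between erythroid-primed progenitors and alas2-high erythroid cells by a test of the difference itself. In progenitors h1fx had 610 and 548 normalised CPM under LY294002, against 437 and 387 in control (log2 fold change 0.52 ± 0.15, adjusted p = 0.15). In alas2-high cells it had 632 and 660, against 238 and 260 (1.37 ± 0.14, adjusted p = 0.00021). The log2 difference was -0.89 in edgeR's quasi-likelihood test (adjusted p = 0.031), the only one of 6536 genes, with 347 at an unadjusted p under 0.05. DESeq2 called 0 (25 unadjusted). It rests on 2 plates a treatment, and h1fx lost its call when any 1 of the 4 plates was left out.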

How the results depend on the processing

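The difference in the share of progenitors, 0.54 points, was below 0 under 5 settings: -0.52 with a minimum of 1000 UMIs, -1.13 with at least 2 UMIs of gata1a and klf1, -0.68 with alas2 under 250 CPM, -0.18 without the 2% of cells with most UMIs and -0.49 with cells thinned to 1500 UMIs. Leaving out 1 plate gave -2.55 to 3.62 points. In progenitors, LY294002 against control gave 16 higher and 12 lower genes, and 5 and 0 with DESeq2, 0 and 0 with alas2 under 250 CPM, 5 and 2 with thinned cells (889 genes tested), 2 and 1 with myb of at least 400 CPM, and 26 and 38 with no low-count filter. Leaving out 1 plate gave 16 to 52 higher and 11 to 38 lower genes; a lone plate is then assumed to vary like the other group. Of the 28 called genes, 23 lost their call with DESeq2, 28 with alas2 under 250 CPM and 25 with myb of at least 400 CPM. Ptena, at 0.011, changed sign with at least 2 UMIs of gata1a and klf1 (-0.017), with no low-count filter (-0.074) and without the 2% of cells with most UMIs (-0.037), and leaving out 1 plate gave -0.135 to 0.106.

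Against alas2-high cells, the 1191 higher and 1120 lower genes became 607 and 577 with DESeq2 and 200 and 229 with thinned cells. Against myb-positive cells without gata1a or klf1, the 9 higher and 3 lower genes became 0 and 1 with DESeq2, 3 and 7 with DESeq2 size factors in edgeR, 0 and 1 with thinned cells, 2 and 0 with a minimum of 3000 UMIs, 4 and 0 with myb of at least 400 CPM, and 68 and 10 with no low-count filter; higher genes became 2 with alas2 under 250 CPM and 5 without the 2% of cells with most UMIs, and lower genes 5 with at least 2 UMIs of gata1a and klf1. Leaving out 1 plate gave 0 to 6 higher and 0 to 5 lower genes. The class by treatment term with these cells called 1 gene with DESeq2 size factors and 1 with a minimum of 3000 UMIs, and 0 to 2 when 1 plate was left out. With alas2-high cells, the 1 lower gene became 0 with DESeq2, 5 with alas2 under 250 CPM, 0 with thinned cells, 2 each with a minimum of 1000 or 3000 UMIs, myb of at least 400 CPM or no low-count filter, and 3 without the 2% of cells with most UMIs; leaving out 1 plate gave 0 to 1 lower and 0 to 1 higher. In alas2-high cells, LY294002 gave 11 lower genes with DESeq2, 100 with no low-count filter, and 22 higher and 10 lower with thinned cells; leaving out 1 plate gave 5 to 60 higher and 0 to 64 lower. The causes were not tested.

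No paired analysis was possible because the labels give the plates no shared replicate numbers. The progenitors of the 4 plates sum to 599026 to 909259 UMIs, which limits calls to genes of moderate level, and genes with a UMI in few cells are not resolved.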
